A study of Homo sapiens with 6 samples.

Results

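The transcription factor NF-kB is built from a small family of subunits, and its activity is held back by a family of inhibitors, the IkB proteins. Transcripts of 10 genes of this system were followed in U87, a widely used line of human glioblastoma cells: the subunit genes NFKB1, NFKB2, REL, RELA and RELB, the cytoplasmic IkB genes NFKBIA, NFKBIB and NFKBIE, and the genes of the nuclear IkB proteins, NFKBIZ and BCL3. The members were every probe set of the array whose platform annotation named only 1 of these genes, which gave 21 of 49293 probe sets and all 10 genes of the 18132 that could be named. The study used 1-colour Affymetrix arrays on total RNA. There were 3 samples of U87 cells overexpressing the microRNA miR-151a and 3 samples of U87 cells overexpressing the negative control microRNA, miR-NC, and no other agent is named for either group. How the microRNAs were introduced, for how long, and which arm of miR-151a was raised are not stated in the labels. Separate cultures are not mentioned either, so the p-values reflect only the variation among these 6 samples, and part or all of it may be technical.

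In resting cells the subunits form dimers that IkB proteins hold in the cytoplasm. Signals from cytokines and stress activate the IKK kinases, which mark IkB proteins for destruction by a ubiquitin ligase, and the freed dimers switch on inflammatory and survival genes. NFKB1 and NFKB2 encode long precursors, p105 and p100, which act as inhibitors themselves until they are trimmed to the DNA-binding subunits p50 and p52. RELA, RELB and REL carry the part that activates transcription. Several genes of the system are known to be switched on by NF-kB itself, NFKBIA being the classic case of such negative feedback.

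Matches to the kappa-B site, the DNA element that NF-kB recognises, lie in front of many of these genes. The stretches around them are shown here, and whether they have a part in any change with miR-151a was not tested. The RefSeq promoter table (GRCh38.p14) held 14 windows for 8 of the members. The 250 bases before each annotated transcription start were searched for the kappa-B consensus decamer, on both strands and with overlapping matches counted. In the lines that follow, the bases of 1 match per line are in capitals. NFKB2 at its start 2, REL and NFKBIB have a further match that is shifted by 1 base and not in capitals, and NFKB2 and NFKBIZ have matches elsewhere in their windows that are not printed.

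NFKB1, chr4:102501300-102501329, plus strand: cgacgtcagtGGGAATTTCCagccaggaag

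NFKB2 at its start 2, chr10:102394461-102394490, plus strand: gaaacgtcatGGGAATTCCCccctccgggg

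NFKB2 at its start 3, chr10:102395674-102395703, plus strand: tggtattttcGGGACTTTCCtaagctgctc

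REL, chr2:60881518-60881547, plus strand: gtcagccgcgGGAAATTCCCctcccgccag

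NFKBIB at its start 2, chr19:38899931-38899960, plus strand: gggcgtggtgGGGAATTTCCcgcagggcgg

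NFKBIZ at its start 1, chr3:101827757-101827786, plus strand: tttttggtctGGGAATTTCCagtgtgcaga

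NFKBIA, all 250 bases before its start, chr14:35404750-35404999, minus strand: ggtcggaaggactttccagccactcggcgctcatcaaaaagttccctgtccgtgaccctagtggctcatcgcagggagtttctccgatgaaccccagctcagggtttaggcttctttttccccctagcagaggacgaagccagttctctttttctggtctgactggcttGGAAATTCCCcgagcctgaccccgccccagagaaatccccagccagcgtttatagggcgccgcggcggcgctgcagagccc

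The kappa-B consensus was found in 8 of the 14 member windows and in 6 of the 8 member genes, against 5.21% of all 35116 windows and 6.28% of all 27305 genes in the table. The single decamer GGGAATTTCC, itself a form of the consensus, was picked from these same sequences as the form found at the most members. Searched on both strands, it was found at 5 members (NFKB1, REL, NFKBIA, NFKBIB and NFKBIZ), against 0.176% of all genes in the table. That choice favours the members. For the consensus too, several genes of this system are known to be switched on by NF-kB, and windows per gene differ between members and all genes. No conclusion is drawn from either contrast. RELA, in both of its windows, and BCL3 had no consensus match. A match is a description of these letters, not a site shown to be used in U87 cells.

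**Figure D1:**
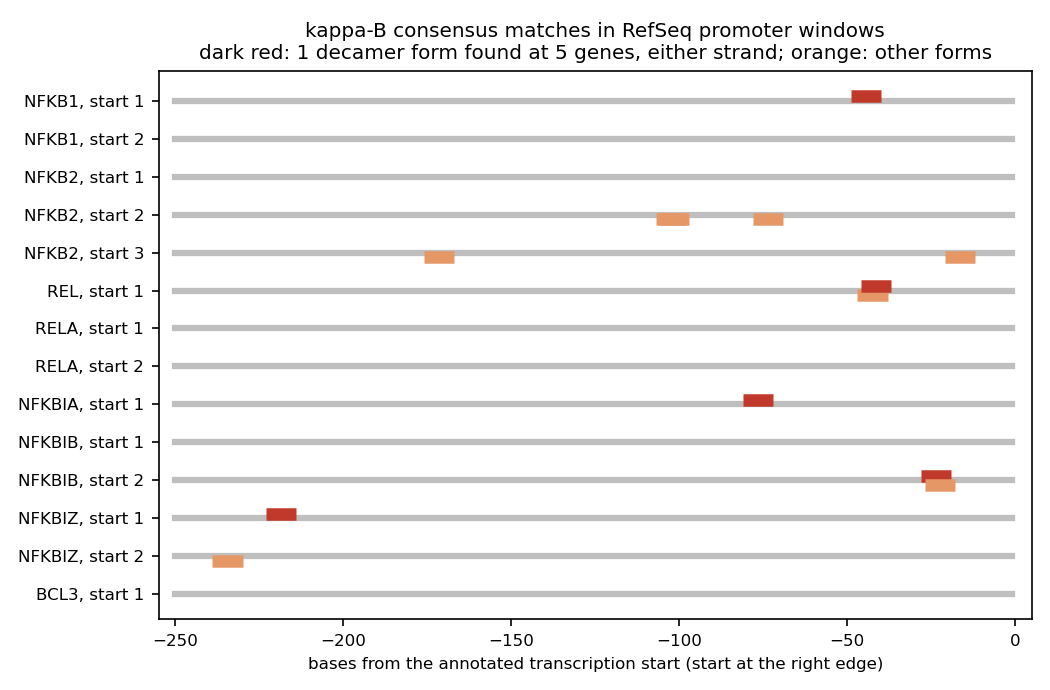
Positions of kappa-B consensus matches (bars) in the 250 bases before each annotated start of the 8 members in the RefSeq promoter table; the horizontal axis gives bases from the start and each row is 1 start. NFKB1, NFKB2, REL, NFKBIA, NFKBIB and NFKBIZ have at least 1 match, and the windows of RELA and BCL3 have none.

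Cells with miR-151a had higher transcript levels of most of the family. Limma was fitted over all probe sets with a threshold of 0.05 on the adjusted p (Benjamini-Hochberg). At that threshold 14 of the 21 member probe sets rose and 0 fell, where 6.81% of all probe sets rose and 7.27% fell. At an unadjusted p of 0.05 the counts were 15 and 0, and the share of all probe sets at that cutoff was not counted. At least 1 probe set rose for 9 of the 10 genes, RELA being the exception. In 15 of the 21 every miR-151a sample lay above every miR-NC sample, which held for 15.3% of all probe sets, and in 0 of the 21 did every miR-151a sample lie below, which held for 18.6%. The median log2 fold change was 0.30 over the member probe sets and -0.01 over all probe sets. In bulk RNA, more cells that carry a transcript and more transcript per cell cannot be told apart.

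The largest rises among the subunits were those of RELB and NFKB2, the pair that forms the dimer of the non-canonical pathway. RELB encodes a subunit that binds p100 and p52. Its probe set had intensities of 284, 333 and 323 in miR-151a cells, against 147, 154 and 161 in miR-NC cells. The lowest miR-151a sample was thus well above the highest miR-NC sample, and intensities plus 1, the scale used throughout, were 2.02-fold higher (log2 fold change 1.02, standard error 0.07, adjusted p = 0.00013). RELB was the 1 member to pass 1 on the log2 scale, as did 0.321% of all probe sets. NFKB2, the gene of p100 and p52, had intensities of 216, 249.9 and 224 in miR-151a cells, against 125, 124 and 132 in miR-NC cells. Its groups did not overlap either, and the rise was 1.80-fold (log2 fold change 0.85, standard error 0.07, adjusted p = 0.00022).

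NFKB1, the gene of p105 and p50, rose 1.62-fold. Its probe set had intensities of 769.7, 815 and 805 in miR-151a cells, against 502, 488 and 481 in miR-NC cells. The spread within each group was small beside the gap between them, and the 95% interval of the log2 fold change, 0.70, was 0.58 to 0.81 (adjusted p = 0.00014). RELB, NFKB2 and NFKB1 each had 1 probe set. In RefSeq the NFKB1 gene overlaps 3 long non-coding RNA genes, among them the antisense gene NFKB1-AS1.

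RELA, which encodes p65, the subunit of the classical p50/p65 dimer, did not pass the test with any of its 3 probe sets, also at an unadjusted p of 0.05 in limma. The brightest had intensities of 474, 497 and 485 in miR-151a cells, against 485, 463 and 438 in miR-NC cells. These groups overlapped, since the lowest miR-151a sample lay below the highest miR-NC sample. The log2 fold change was 0.07 with a 95% interval from -0.06 to 0.20, and the other two probe sets were at 0.13 and 0.15, with intervals that also include 0 and reach 0.28 and 0.37.

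REL, the gene of c-Rel, gave a mixed call. Its brighter probe set had intensities of 62.1, 71.1 and 82.7 in miR-151a cells, against 53.6, 49.6 and 61.4 in miR-NC cells. The groups were apart by less than 1 intensity unit at their nearest samples, and the log2 fold change of 0.38 had an adjusted p of 0.060. It passed without miR-151a replicate 1 (adjusted p = 0.039) and without miR-NC replicate 3 (adjusted p = 0.0496). The dimmer probe set, at 30.1, 32.3 and 31.1 in miR-151a cells, against 22.6, 23.9 and 26.2 in miR-NC cells, rose by 0.35 on the log2 scale (adjusted p = 0.010), a value that became 0.17 with a pseudocount of 32. The mean over both probe sets was at 0.37 (adjusted p = 0.014 at the gene level).

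**Figure D2:**
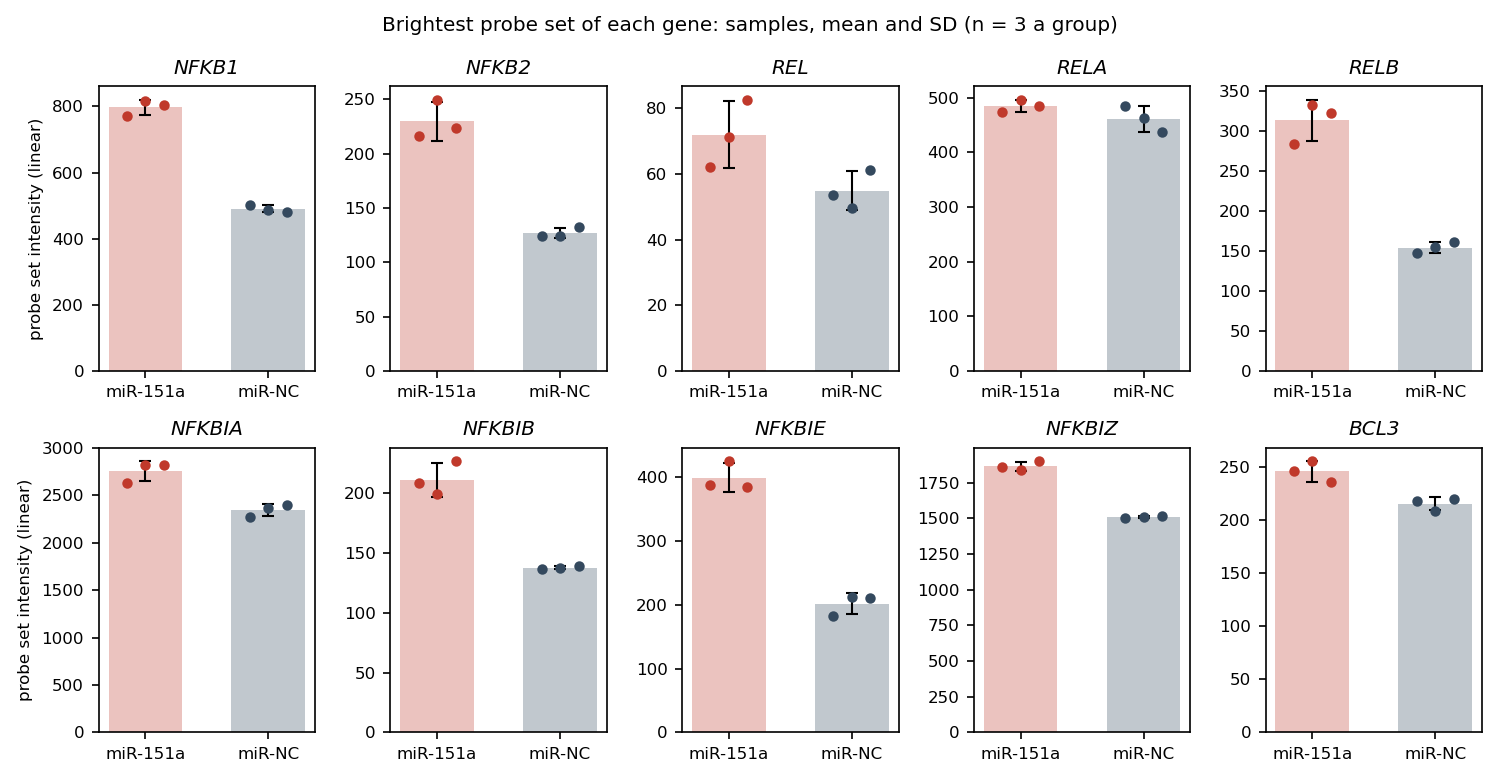
Linear intensity of the brightest probe set of each gene, with points for the samples, bars for the means and whiskers for the SD (n = 3 a group); vertical scales differ between genes and start at 0. Relative to the miR-NC level, RELB, NFKB2, NFKBIE, NFKB1 and NFKBIB show the widest gaps between miR-151a and miR-NC cells, and the RELA samples overlap.

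All 3 cytoplasmic inhibitor genes rose, and all 8 of their probe sets passed. NFKBIE, which encodes IkB-epsilon, changed most. It had intensities of 388, 426 and 385 in miR-151a cells, against 183, 212 and 211 in miR-NC cells. The values with miR-151a were close to double those with miR-NC, at 1.98-fold (log2 fold change 0.98, standard error 0.07, adjusted p = 0.00017). NFKBIE and RELB were not in the promoter table used here.

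NFKBIB, the gene of IkB-beta, rose in each of its 4 probe sets, by 0.36 to 0.65 on the log2 scale. The brightest had intensities of 208, 199 and 227 in miR-151a cells, against 137, 137 and 139 in miR-NC cells, a 1.53-fold rise (adjusted p = 0.00070). The next, at 158, 154 and 152 in miR-151a cells, against 104, 90.9 and 101 in miR-NC cells, rose 1.57-fold. No group overlapped in any of the 4. Another had intensities of 103, 129.5 and 119 in miR-151a cells, against 73.0, 88.5 and 83.8 in miR-NC cells. The dimmest, at 75.3, 70.7 and 63.1 in miR-151a cells, against 52.7, 53.1 and 56.2 in miR-NC cells, had the smallest change, 0.36, and an adjusted p of 0.015 that became 0.054 without miR-NC replicate 1. The mean over the 4 was at 0.53.

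NFKBIA, the gene of IkB-alpha, rose less, although its probe sets stood among the brightest of the array, above the 96th percentile in every sample. The brightest had intensities of 2634, 2815 and 2817 in miR-151a cells, against 2275, 2363 and 2394 in miR-NC cells. The second had 2639, 2749 and 2754 in miR-151a cells, against 2249, 2269 and 2299.8 in miR-NC cells. The 3 probe sets gave like changes, of 0.23, 0.26 and 0.29 on the log2 scale, which are rises of 17.5%, 19.4% and 22.1%. The dimmest had 1895, 2127 and 2002 in miR-151a cells, against 1642, 1626 and 1661 in miR-NC cells, and its groups, like those of the other two, did not overlap. The adjusted p of the brightest was 0.023 and became 0.055 to 0.081 when miR-151a replicate 2 or 3 or any single miR-NC replicate was left out, while the other two passed without each sample in turn.

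The nuclear IkB proteins bind NF-kB dimers on DNA and can raise or lower transcription there. NFKBIZ, which encodes IkB-zeta, had intensities of 1857, 1837 and 1902 in miR-151a cells, against 1503, 1510.0 and 1519 in miR-NC cells. The samples of each group lay close together, and the rise was 23.4% (log2 fold change 0.30, standard error 0.05, adjusted p = 0.0049). The NFKBIZ gene overlaps NXPE3 in RefSeq, and NXPE3 was at -0.04 (adjusted p = 0.72 at the gene level). BCL3 encodes a nuclear partner of p50 and p52. Its brightest probe set, at 246, 255 and 235 in miR-151a cells, against 218, 208 and 219 in miR-NC cells, rose by 14.1% with an adjusted p of 0.0498, just inside the threshold. This call was lost without each of the 6 samples in turn (adjusted p from 0.063 to 0.16), and with the mean over the 4 BCL3 probe sets the log2 fold change was 0.08 (adjusted p = 0.25). The other 3 BCL3 probe sets were dim, with group means from 10.1 to 33.4, and lay between 0.01 and 0.08 with groups that overlapped.

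**Figure D3:**
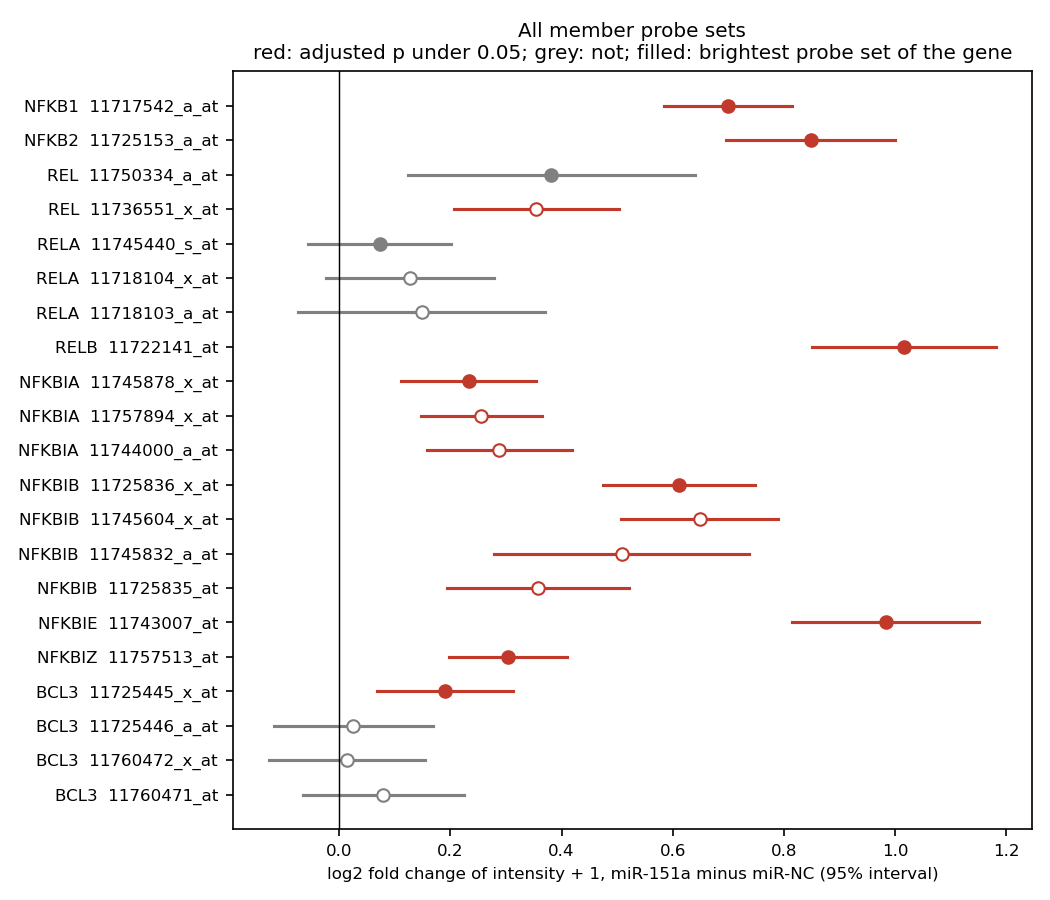
Log2 fold change of intensity + 1, miR-151a minus miR-NC, for all 21 member probe sets, with 95% intervals of the limma fit; red marks an adjusted p under 0.05 and filled points the brightest probe set of each gene. RELB at 1.02 and NFKBIE at 0.98 lie farthest to the right, and the 3 RELA probe sets and the 3 dim BCL3 probe sets have intervals that include 0.

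The members did not move by equal amounts. Within each array the log2 ratio of RELB to RELA ran from -0.74 to -0.58 in miR-151a cells and from -1.72 to -1.44 in miR-NC cells, a difference of 0.94 (95% interval 0.68 to 1.21). For NFKBIE over NFKBIA the ratio ran from -2.87 to -2.72 in miR-151a cells and from -3.63 to -3.47 in miR-NC cells, a difference of 0.75 (0.57 to 0.93). For NFKB2 over NFKB1 the difference was 0.15, with an interval from -0.03 to 0.32 that includes 0. These 3 pairs were chosen after the values were seen, the ratios use the brightest probe set of each gene, and the two-sided exact permutation p was 0.1 for each (0.1 after Benjamini-Hochberg adjustment), the smallest that 3 samples against 3 allow. The levels of the probe sets themselves are not compared between genes.

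Counted by genes, with each gene represented by its brightest probe set, 8 of the 10 members rose (REL and RELA did not pass), where 7.27% of all genes rose and 8.11% fell. By log2 fold change RELB stood at rank 73 of 18132 genes, NFKBIE at 81, NFKB2 at 113, NFKB1 at 160 and NFKBIB at 209. REL was at 508, NFKBIZ, NFKBIA and BCL3 were at 754, 1169 and 1625, and RELA was at 4700.

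Of 17 measured genes of the IKK kinases and their activators, which act upstream of the IkB proteins, 3 rose (17.6%, where 7.27% of all genes did) and 1 fell, with a list median of 0.08 on the log2 scale against -0.01 over all genes. By their brightest probe sets, the catalytic IKK genes CHUK and IKBKB were at -0.01 and 0.08 and the regulatory subunit gene IKBKG at -0.07, with adjusted p from 0.40 to 0.95. Of the 11 IKBKB probe sets, however, 2 rose and 0 fell. IRAK2, a kinase of interleukin-1 receptor signalling, had intensities of 430.1, 433 and 406 in miR-151a cells, against 348, 339.7 and 329.7 in miR-NC cells (log2 fold change 0.32, adjusted p = 0.0046). MAP3K14, which encodes NIK, the kinase that starts the processing of p100, was at 0.35 (adjusted p = 0.040) and TAB2, an adaptor of the kinase TAK1, at 0.24. MYD88, the adaptor of interleukin-1 and Toll-like receptors, was at -0.21 (adjusted p = 0.032) as the gene that fell. In the fit over all probe sets, 1 of 2 probe sets of IRAK2 and 1 of 4 of TAB2 rose, and 1 of 5 of MYD88 fell. The 3 rises became 1 without miR-NC replicate 2 or 3, and the fall was lost without miR-151a replicate 1 or 2 or any of the miR-NC replicates; with the mean over probe sets 6 genes rose and 0 fell.

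Among 7 measured genes of the ubiquitin ligase that marks IkB proteins and its partners, 0 rose, also at an unadjusted limma p of 0.05, and 1 fell, with a median of -0.08. Of all genes, 7.27% rose and 8.11% fell. The ligase gene that fell was RBX1, the RING subunit, at 1632, 1612 and 1566 in miR-151a cells, against 2053, 1921 and 1956 in miR-NC cells (log2 fold change -0.30, adjusted p = 0.0053). In the fit over all probe sets, 1 of 2 probe sets fell for each of RBX1, CUL1 and UBE2R2, and 1 of 3 for SKP1. With the mean over probe sets 2 genes of this group fell. BTRC, whose protein recognises phosphorylated IkB, was at -0.17 (adjusted p = 0.23).

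Of 14 measured TRAF, cIAP and ubiquitin regulators, 6 rose and 0 fell (9 and 1 at an unadjusted limma p of 0.05), with a median of 0.17. The rises were 42.9% of this list, where 7.27% of all genes rose and 8.11% fell. TNFAIP3, the gene of the deubiquitinase A20, had intensities of 1491, 1540 and 1396 in miR-151a cells, against 485, 443 and 428 in miR-NC cells. Its log2 fold change of 1.70 was larger than that of any of the 10 members, as was that of TRAF1, at 1.69. CYLD, another deubiquitinase gene, was at 0.93 by its brightest probe set, but of its 4 probe sets 1 rose and 1 fell. TRAF6 was at 0.39. In this list 1 gene fell when miR-151a replicate 3 was left out.

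Of 10 measured genes of other regulators of the dimers, 2 rose (20%, where 7.27% of all genes did) and 0 fell (3 and 2 at an unadjusted limma p of 0.05), with a median of -0.06. NFKBIL1, a gene named for its likeness to the IkB proteins, was at 0.59 (adjusted p = 0.0031) and COMMD1, which promotes the removal of RELA from chromatin, was at 0.18 (adjusted p = 0.043 at the gene level). The only probe set of COMMD1 did not pass in the fit over all probe sets. Leaving out miR-151a replicate 2 or 3, or any single miR-NC replicate, left 1 of the 2 rises. A fall of 1 gene passed with a pseudocount of 32.

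Genes reported as NF-kB targets rose in most cases. Of 34 measured, 22 rose and 0 fell (27 and 1 at an unadjusted limma p of 0.05), with a median of 0.43, and 4 of the 37 on the list are also among the TRAF, cIAP and ubiquitin regulators. The rises were 64.7% of the list, where 7.27% of all genes rose and 8.11% fell. This list, like the others, was chosen with earlier results of these data known. A fall of 1 target gene passed with a pseudocount of 32. By smallest p the leading genes were TRAF1, IL1A, CXCL3 and TNFAIP3. TNF, the gene of the cytokine that activates IKK, had intensities of 89.1, 128 and 112 in miR-151a cells, against 44.6, 48.7 and 48.1 in miR-NC cells (log2 fold change 1.18, adjusted p = 0.00080). The adhesion molecule genes VCAM1 and ICAM1 were at 1.82 and 1.11 and the transcription factor gene IRF1 at 1.18; these 4 were named after their values were seen. Target genes that did not pass included the adhesion molecule gene SELE at 0.05 and the chemokine gene CCL2 at 0.16 (adjusted p = 0.75 and 0.14).

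**Figure D4:**
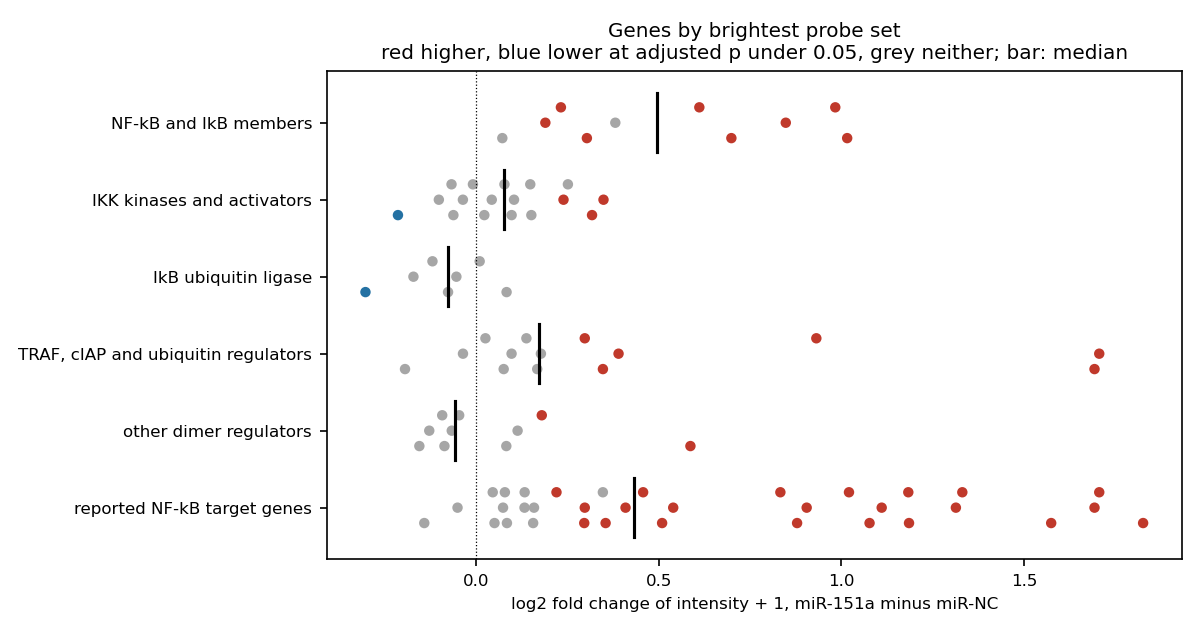
Log2 fold change of intensity + 1, miR-151a minus miR-NC, for the members and the measured genes of 5 lists, each gene by its brightest probe set; red points rose and blue points fell at an adjusted p under 0.05 at the gene level, grey points did neither, and black bars are medians. The members and the reported targets lie mostly to the right of 0, and the IKK and ubiquitin ligase genes lie around it.

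The transcripts whose levels over the 6 samples were most like those of RELB, the member with the smallest p, were HIVEP2, which encodes a zinc finger protein that binds kappa-B-like DNA, SPATA12 and the cytokine gene IL6, with Pearson correlations of 0.9997, 0.9992 and 0.9986. The samples share 2 groups, and 844 of 18122 other genes had a correlation over 0.95, so this measure mostly reflects the difference between the groups.

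The 6 arrays had nearly equal distributions, with medians from 57.1 to 58.6. For the beta-actin controls, the 3 prime probe set minus the 5 prime one on the log2 scale was 0.29 ± 0.02 in miR-151a cells and 0.40 ± 0.03 in miR-NC cells (SD, n = 3 each; difference -0.11, two-sided exact permutation p = 0.1), and for GAPDH the difference was 0.0063 (exact permutation p = 0.5). The labels name labelling along the whole transcript, whereas the probe set names resemble those of a 3 prime design, so what these differences say of RNA quality is not settled. Their part in the members' changes was not tested. Beside the marker counts that follow, 7.27% of all genes rose and 8.11% fell. Of 11 markers of glial and glioma cells, 0 rose and 1 fell (1 and 2 at an unadjusted limma p of 0.05). The one that fell was the nestin gene NES, at -0.31. VIM, the vimentin gene, was at 19170 ± 297 in miR-151a cells and 19019 ± 484 in miR-NC cells (SD, n = 3 each), whereas the astrocyte gene GFAP, at 61.4 and 63.2, lay near the array median. Of 7 lymphoid markers 0 rose and 0 fell (0 and 1 at an unadjusted limma p of 0.05), and their summed intensity was 195 to 226 in miR-151a cells and 197 to 222 in miR-NC cells, with the pan-leukocyte gene PTPRC at 7.53 and 8.65. Of 8 myeloid markers 1 rose (12.5%) and 0 fell (2 and 1 at an unadjusted limma p of 0.05). The one that rose was CD163, at 16.3 in miR-151a cells and 9.90 in miR-NC cells. ITGAM did not pass by its brightest probe set (log2 fold change 0.42, adjusted p = 0.058 in limma at the gene level). In the fit over all probe sets, 2 of the 3 ITGAM probe sets rose. The summed intensity of the 8 was 1294 to 1380.0 in miR-151a cells and 1261 to 1355 in miR-NC cells. Most of that sum was CD68, a lysosomal protein gene, at 1028 ± 46.6 in miR-151a cells and 1004 ± 29.9 in miR-NC cells (SD, n = 3 each), and the means of the other 7 ran from 9.69 to 98.1 in miR-151a cells and from 9.90 to 114 in miR-NC cells. Of 5 endothelial and 4 neuronal markers 0 rose and 0 fell in limma (0 and 1 endothelial, 1 and 0 neuronal at an unadjusted p of 0.05), with summed intensities of 228 to 238 and 489 to 513 in miR-151a cells and 235 to 255 and 489 to 501 in miR-NC cells.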

How the data were processed

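The authors deposited 1 table of linear probe set intensities with 49395 rows, and its 102 control rows took no part in the tests. The submitters' processing notes name MAS5 with neither version nor role. How background, summarization and scaling were handled is not given, and no detection calls were used. Per the labels' protocols, Trizol was used for extraction and biotin for labelling. Gene names came from the platform annotation and were brought up to date by Entrez number against RefSeq: 44988 probe sets named 1 gene, 1832 several and 2473 none. Intensities were tested as log2(intensity + 1), a scale that understates changes of dim genes. The test was limma's (version 3.58.1, R 4.3.3) lmFit and eBayes with group as the only term. P-values were adjusted by Benjamini-Hochberg across the 49293 probe sets, or across 18132 genes when each gene was taken by its brightest probe set. Precision is limited by the number of arrays (SD within groups 0.08 on the log2 scale, median of all probe sets). Probe set suffixes mark sets that may match several transcripts (a, s) or cross-hybridise (x), as 16 of the 21 member probe sets do. The members and lists were chosen with earlier results of these data known. Named were every member, up to 4 genes past the threshold with the smallest p in each list (or 2 where none passed), and the 3 genes most like the member with the smallest p; other names were chosen after their values were seen. The alternatives changed the normalization (quantile, or centring on the median), the pseudocount (32), the filter (0.25 quantile of mean level), the variance model (trend, robust), the pairing (replicate block), the unit (mean over probe sets) and the samples (each left out in turn). In simulated data for this comparison of 49293 probe sets, 50 were changed at each of 4 sizes. The recovered share was 4% for changes of 0.25 on the log2 scale, 74% for 0.5, 94% for 1 and 100% for 2, with 4.23% of calls false. These shares need not hold for the data themselves, where far more probe sets, 14.1%, passed in either direction, since the Benjamini-Hochberg cutoff depends on how many change. Figures were drawn with matplotlib 3.10.9.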

Additional observations from a re-analysis of the deposited data

How the results depend on the processing

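Of 270 values of member probe sets under the alternatives, 246 kept their direction and their side of the threshold, 15 lost the call, 6 gained it and 3 reversed; the reversed values belong to 2 dim BCL3 probe sets, which ran from -0.010 to 0.084 and from -0.028 to 0.041 without 1 sample. The count of member probe sets that rose, 14 with all samples, ran from 11 to 14 without 1 sample, with 0 falls in each of these fits. Of the 14 themselves, 11 to 13 kept the call: the brightest BCL3 probe set lost it in all 6 fits, and the brighter REL one gained it in 2 fits, those leaving out miR-151a replicate 1 and miR-NC replicate 3. Counted by genes, 8 rose by the brightest probe set and 8 by the mean over probe sets, but not the same 8: BCL3 passed by the brightest (adjusted p = 0.040) and not by the mean (0.25), and REL by the mean (0.014) and not by the brightest (0.060). Over all probe sets 2171 to 2689 rose and 1893 to 2426 fell without 1 sample (3 and 5 of these 6 fits moved by over 1.5 times), and 5396, 5856 and 2052 fell with a pseudocount of 32, the variance trend and the replicate block. Over all probe sets, dim and bright alike, the deviations of same-numbered samples correlated at -0.08, -0.12 and 0.07. Those of differently numbered samples of the 2 groups correlated at -0.06 to 0.13. Some bright genes kept 1 order in both groups: FN1 was at 4479, 4225 and 3809 in miR-151a replicates 1 to 3 and at 4373, 4051 and 3709 in miR-NC ones. Others did not, such as IL1B, at 5579, 5871 and 5874 against 4422, 4376 and 4243. Whether samples pair by replicate number is thus not settled. With the replicate block the brighter REL probe set passed (adjusted p = 0.036) and the BCL3 one did not (adjusted p = 0.12), with 0 IKK genes lower and 1 other dimer regulator higher. Rises among IKK genes ran from 1 to 3 and falls from 0 to 1 without 1 sample, falls among TRAF, cIAP and ubiquitin regulators from 0 to 1, and rises among other dimer regulators from 1 to 2. With median centring 1 other dimer regulator rose, and the BCL3 probe set did not pass (adjusted p = 0.074). With a pseudocount of 32 and with the variance trend, 1 other dimer regulator and 1 reported target fell. With the mean over probe sets 6 IKK genes rose and 0 fell, and 2 ubiquitin ligase genes fell. The cause of these changes was not tested. Dim probe sets limit what can be seen: of the 21, 19 passed the filter on low levels, and the 2 below it are BCL3 probe sets.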
